A study of Mus musculus with 30 samples.

Results

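The genes described here are those of the ubiquitin-proteasome system on a spotted mouse cDNA array, followed in AtT-20 cells through 24 h of corticotropin-releasing hormone (CRH). They were chosen by the name printed for each spot: every spot whose name starts with proteasome (also spelled proteaseome), ubiquitin, F-box or COP9. This rule took 185 of the 22830 spots that were neither empty nor controls. They carry 119 names, of which 34 start with proteasome, 57 with ubiquitin, 21 with F-box and 7 with COP9. Of the 185 spots, 143 were brighter than an intensity limit in both dyes on all 30 arrays and are called measured, out of 14375 measured spots in all. The measured spots stand for 104 genes: 31 with a proteasome name (41 spots), 48 with a ubiquitin name (72 spots), 18 with an F-box name (21 spots) and 7 with a COP9 name (9 spots). The other 42 spots were below the limit on at least 1 array, among them all spots of 15 genes, and 28 of the 42 were above it on 25 or more arrays. The limit was the 10th percentile of the channel over all spots of an array.

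AtT-20 cells come from a mouse tumour of the pituitary and resemble corticotropes. They make pro-opiomelanocortin (Pomc) and secrete ACTH when CRH binds its receptor. Serum-deprived cells were given 100 nM human/rat CRH, and untreated cells had the same serum-free medium without it. Both were harvested after 1, 3, 6, 12 or 24 h, and at each time RNA of the treated and of the untreated cells was hybridised together on 6 arrays, 3 labelled with Cy3 on the treated side and 3 with Cy5. The 6 arrays of a time point share 1 pair of RNA extracts, so their SD covers hybridisation and scanning, a p-value over the 30 arrays measures that technical spread, and the culture itself was not replicated within a time point. All ratios below are log2 of CRH-treated over untreated RNA. A ratio above 0 thus means more signal in CRH-treated RNA. These are bulk cultures, in which a change in the number of cells of a kind and a change in RNA per cell cannot be told apart. In the untreated channel the spots of Pomc, Pitx1, Nr3c1 and Neurod1, markers of corticotropes, were brighter than the array's median spot on all 30 arrays. Tbx19, a transcription factor of corticotropes, was above the limit on all arrays, but not brighter than the median spot on all of them. The same held for the pituitary growth hormone gene Gh and the fibroblast markers Col3a1 (its 1 spot), Col1a1 (1 of 2 spots) and Col1a2 (2 of 3 spots). The leukocyte marker Ptprc was not above the limit on all arrays. No other leukocyte marker is reported here, and the part of these cell types in the results was not tested. Median spot intensity per channel ranged from 481.8 to 2175, and the median SD of a member spot between the arrays of a time point from 0.263 to 0.335.

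The proteasome is the protease of the cytosol and nucleus that degrades proteins tagged with ubiquitin. Its 20S core is a barrel of alpha rings, which form the gate, and beta rings, which hold the active sites, and the 19S cap binds ubiquitin chains and unfolds the substrate with a ring of ATPases. The tag is set by an E1 enzyme that activates ubiquitin, an E2 that carries it and an E3 that chooses the substrate, and deubiquitinases take it off again. F-box proteins are the substrate receptors of one large E3 family, the SCF ligases, and the COP9 signalosome removes the ubiquitin-like protein Nedd8 from the cullins that hold such ligases together. In endocrine cells the system sets the life span of transcription factors and cell cycle proteins and clears misfolded prohormones.

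Most proteasome spots had ratios below 0 at 1 h and above 0 at 3 h. Their median log2 ratio was -0.14 at 1 h, when 32 of the 41 spots had a mean below 0, and 0.14 at 3 h, when 33 of 41 had a mean above 0. The medians over all 14375 measured spots were 0.00 at 1 h and -0.02 at 3 h. On single arrays the median of the proteasome spots lay between -0.25 and -0.03 at 1 h, below 0 on all 6 arrays. At 3 h it lay between 0.07 and 0.19, above 0 on all 6. Neither set of arrays reached the other. With the treated RNA in Cy3 the array medians averaged -0.19 at 1 h and 0.14 at 3 h, and with it in Cy5 -0.08 and 0.13, so that both dye orientations gave the same sign. At 6, 12 and 24 h the median of the proteasome spots was 0.02, 0.06 and 0.04, with array medians on either side of 0 at each of these times. All of these medians are far below a doubling, which is 1 on this scale. No test was made on the medians, since each time point holds 1 pair of extracts. The 1 h arrays were quantified on a day of their own and the 3 and 6 h arrays together on another, so the time point, its extracts and the day cannot be told apart between 1 and 3 h.

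**Figure D1:**
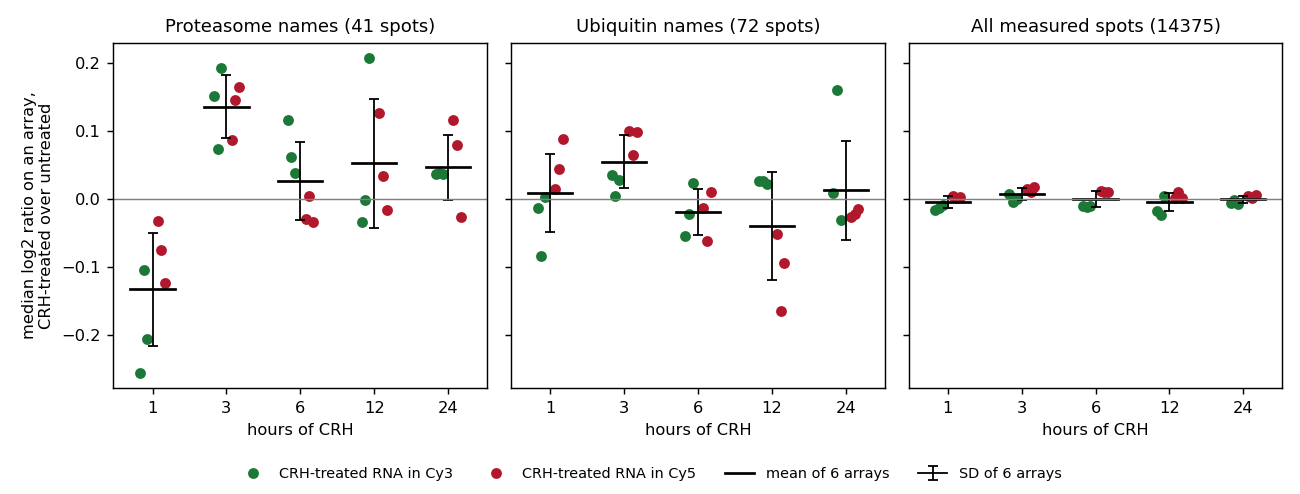
Median log2 ratio (CRH-treated over untreated RNA) of the proteasome spots, the ubiquitin spots and all measured spots on each array, by hours of CRH, with green points for treated RNA in Cy3 and red for Cy5, bars for the mean of 6 arrays and whiskers for their SD. The 6 points of the proteasome spots at 1 h lie between -0.25 and -0.03, and the 6 at 3 h between 0.07 and 0.19, while the ubiquitin spots cross 0 at 1 h.

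The shift between 1 and 3 h ran through most of the proteasome subunits. Counted by gene, with several spots of a gene averaged, 26 of the 31 proteasome genes had a mean ratio below 0 at 1 h, 27 had one above 0 at 3 h, and 23 had both. By spot, 27 of 41 (65.9%) were below 0 at 1 h and above 0 at 3 h, against 26.8% of all measured spots. The mean at 3 h was above that at 1 h on 32 of 41 proteasome spots (78%), where 47.2% of all measured spots had this order. The median difference of the proteasome spots, 3 h minus 1 h, was 0.28. Of the 72 ubiquitin spots, 37 (51.4%) had the higher mean at 3 h, with a median difference of 0.01. Of the 21 F-box spots 7 (33.3%) had it, with a median difference of -0.17. The COP9 spots had an order like that of the proteasome: 6 of 9 (66.7%) were higher at 3 h, with a median difference of 0.11. Of these 9 spots, 5 (55.6%) were below 0 at 1 h and above 0 at 3 h, and so were 12 of the 26 E2 spots. No test was made of the counts, because spots of one array share its extracts and are not replicates.

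Each role group of the proteasome had a median below 0 at 1 h and above 0 at 3 h. The 8 spots of 20S alpha subunits, which form the outer rings and the gate, had a median of -0.12 at 1 h and 0.15 at 3 h, and 4 of them went from below to above 0. The 9 spots of 20S beta subunits, the catalytic rings, had -0.08 and 0.12, and 5 of 9 went from below to above 0. For the 5 spots of 19S ATPases, which unfold substrates and open the gate, the medians were -0.22 and 0.23, with 4 of 5 in this order. The 14 spots of 19S non-ATPase subunits, a group that here also holds the assembly chaperones Psmd5 and Psmd10, had -0.16 and 0.13, with 10 of 14. The remaining 5 spots, of the activator subunits Psme1, Psme2 and Psme3 and of Psmc3ip, had -0.12 and 0.15, with 4 of 5. Psmc3ip is filed under a proteasome name but is known as a cofactor of meiotic recombination. In some groups the sign rested on one dye orientation. At 1 h the array medians of the 19S ATPases averaged -0.47 with treated RNA in Cy3 and 0.09 in Cy5. Those of the 20S beta spots averaged -0.29 and -0.02. At 3 h those of the 20S alpha spots averaged 0.19 and 0.01. The 19S non-ATPase spots had like values in both, -0.15 and -0.12 at 1 h and 0.17 and 0.15 at 3 h.

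**Figure D2:**
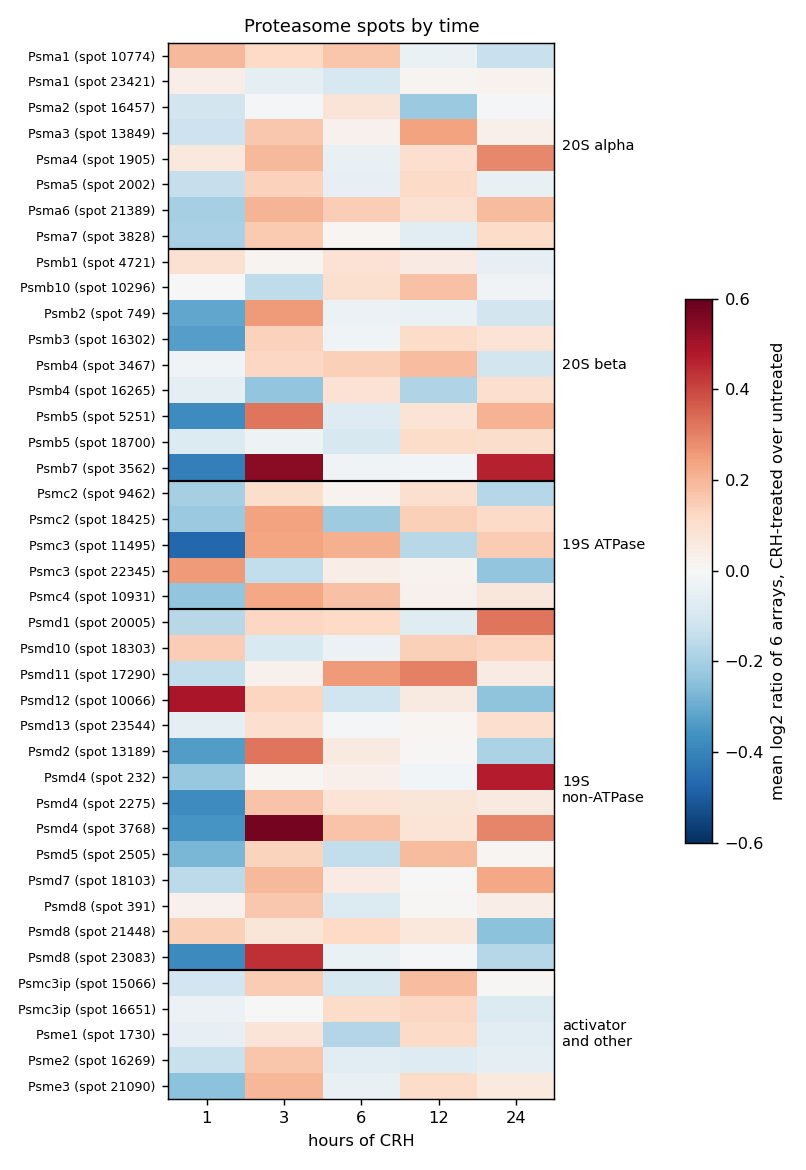
Mean log2 ratio of 6 arrays (CRH-treated over untreated RNA) for the 41 measured proteasome spots, in rows grouped by role, at 1, 3, 6, 12 and 24 h of CRH, with red above 0 and blue below 0. The 1 h column is mostly blue, with 32 of 41 spots below 0, and the 3 h column mostly red, with 33 of 41 above 0.

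The brightness of the spots is given beside this pattern. The proteasome spots were somewhat brighter than the rest: their median lay at percentile 58.5 of mean intensity, and 15 of 41 (36.6%) were among the brightest 25% of measured spots. Over all measured spots, the median ratio of the brightest 25% was 0.01 at 1 h and -0.03 at 3 h, and that of the dimmest 25% 0.01 and -0.01. The 15 proteasome spots in the brightest 25% had medians of -0.16 at 1 h and 0.16 at 3 h, and the 8 in the dimmest 25% -0.05 and 0.07. The 2 middle classes had proteasome medians of -0.27 and -0.13 at 1 h. Their 3 h medians were 0.13 and 0.16. The part of brightness in the pattern was not tested.

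The model over the 30 arrays asked, spot by spot, whether the ratio differed between the 5 time points, after spots whose dye difference itself changed with time (interaction p under 0.01) had been set aside. By this test 15 of the 117 member spots tested changed over time at p under 0.01 (12.8%), where 8.5% of all spots tested passed. Of the 29 proteasome spots tested, 6 passed (20.7%), and of the 60 ubiquitin spots 7 (11.7%). The COP9 spots gave 2 of 8. None of the 20 F-box spots passed in this linear model, and 1 had an unadjusted p under 0.05. After Benjamini-Hochberg adjustment over all 12244 spots tested, 5 members were left at an adjusted p under 0.05 (4.27%), near the 3.99% of all spots, among them Psmd8, Psmb2 and Cops4. In 12 of the 15 changed spots the lowest mean was that of 1 h, in 9 the highest was that of 3 h, and in 8 both held. These counts were not made over all changed spots of the array, so whether this shape is particular to the members was not tested. Without the replicate 1 array of each time point 8 members passed instead of 15, and without replicate 6 the proteasome spots gave 3 instead of 6. Without the 1 h arrays 8 members passed, 3 of them proteasome spots, and without the 3 h arrays 9 members, 1 of them a proteasome spot. With the day of quantification as a block, which leaves only 3 against 6 h and 12 against 24 h, 2 members passed, Psmd8 spot 23083 and Psmc2 spot 18425.

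Psmd8, a non-ATPase subunit of the 19S cap, had the lowest p for time among the members. On its spot 23083 the 6 arrays of 1 h ranged from -0.54 to -0.28 with a median of -0.34, and those of 3 h from 0.31 to 0.65 with a median of 0.42. All 1 h arrays were below 0, all 3 h arrays above, and the ranges did not overlap. The mean was -0.38 ± 0.10 (SD, n = 6) at 1 h, 0.44 ± 0.14 at 3 h, then -0.04 ± 0.19 at 6 h, and later -0.01 ± 0.44 at 12 h and -0.17 ± 0.25 at 24 h. Time had an adjusted p of 0.00844 over all spots tested in the linear model. Between 3 and 6 h, arrays that were quantified on one day, the difference passed p under 0.01 too. Both other spots of Psmd8 lacked this course. Spot 391 had 0.03 ± 0.51 at 1 h and 0.16 ± 0.26 at 3 h, and spot 21448 had 0.14 ± 0.40 and 0.07 ± 0.34, with adjusted p for time of 0.818 and 0.64.

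The 9 spots of beta subunits stand for 7 genes. Psmb1 had means of 0.09 ± 0.67 at 1 h and 0.02 ± 0.27 at 3 h (SD, n = 6), and Psmb10, an immunoproteasome subunit, -0.00 ± 0.54 and -0.15 ± 0.43. Psmb3 had -0.33 ± 0.45 and 0.14 ± 0.29, and the Psmb4 spots -0.02 and 0.12 (spot 3467) and -0.05 and -0.24 (spot 16265). None of these 5 spots changed over time. Psmb1, Psmb3, Psmb10 and Psmb4 spot 3467 were chosen after their values were seen, to cover the measured beta subunits. The beta subunit Psmb6 was not measured, its spot being above the limit on only 3 arrays. Psmb5 carries the chymotrypsin-like activity of the proteasome, the site that the drug bortezomib blocks. On its spot 5251 the arrays ranged from -0.60 to -0.09 at 1 h (median -0.36) and from 0.11 to 0.67 at 3 h (median 0.25), again without overlap. The means were -0.38 ± 0.18 and 0.32 ± 0.22 (SD, n = 6), and the later ones -0.08, 0.08 and 0.21. Time passed p under 0.01, with an adjusted p of 0.0511, and the call was lost without replicate 4. Without replicate 5 the spot was set aside for its interaction with dye. A further Psmb5 spot, 18700, stayed within 0.11 of 0 in its mean at all 5 times, with SDs from 0.34 to 0.55 (adjusted p = 0.913). Psmb2, a structural beta subunit, had on spot 749 a mean of -0.31 ± 0.18 at 1 h and 0.26 ± 0.30 at 3 h. All its 1 h arrays were below 0, from -0.58 to -0.11, and 5 of 6 at 3 h were above, from -0.15 to 0.64. Time had an adjusted p of 0.0159, and 3 against 6 h passed p under 0.01.

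Psmb7, which carries the trypsin-like activity, had the largest step of any member between 1 and 3 h: its mean went from -0.41 ± 0.32 to 0.54 ± 0.18 (SD, n = 6), a difference of 0.95. Arrays ranged from -0.75 to 0.02 at 1 h and from 0.33 to 0.77 at 3 h. At 6 and 12 h the mean was -0.02 both times, and at 24 h it was 0.46 ± 0.46. This spot was set aside from the test of time, since its dye difference changed with time (interaction p under 0.01, adjusted p = 0.0334). At 1 h its mean was -0.65 with treated RNA in Cy3 and -0.17 for Cy5, and at 3 h 0.51 and 0.57. Both orientations had the higher mean at 3 h, by unequal amounts.

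Beside Psmd8, Psmb5 and Psmb7, the 3 h arrays lay above all 1 h arrays on the spots of Psmd2, Psmd7 and Cops4. These are 6 of 143 member spots (4.2%), 5 of them among the 41 proteasome spots (12.2%), and 1.69% of all measured spots had such arrays. The reverse order, all 3 h arrays below those of 1 h, was found on 0 member spots and on 0.41% of all spots. Psmd2, the large scaffold of the 19S base, was chosen here after its values were seen. It ranged from -0.98 to -0.03 at 1 h and from 0.09 to 0.58 at 3 h, with means of -0.33 and 0.32. Psmd7, a partner of the deubiquitinase Psmd14 in the lid, ranged from -0.29 to -0.05 and from 0.02 to 0.57, with means of -0.16 ± 0.09 and 0.20 ± 0.20 (SD, n = 6). The dye difference of both changed with time, with an adjusted interaction p of 0.0495 for Psmd2 and 0.00383 for Psmd7, so neither was tested for time. For Psmd7 the orientations parted most at 24 h, when its mean was -0.15 with treated RNA in Cy3 and 0.62 for Cy5.

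**Figure D3:**
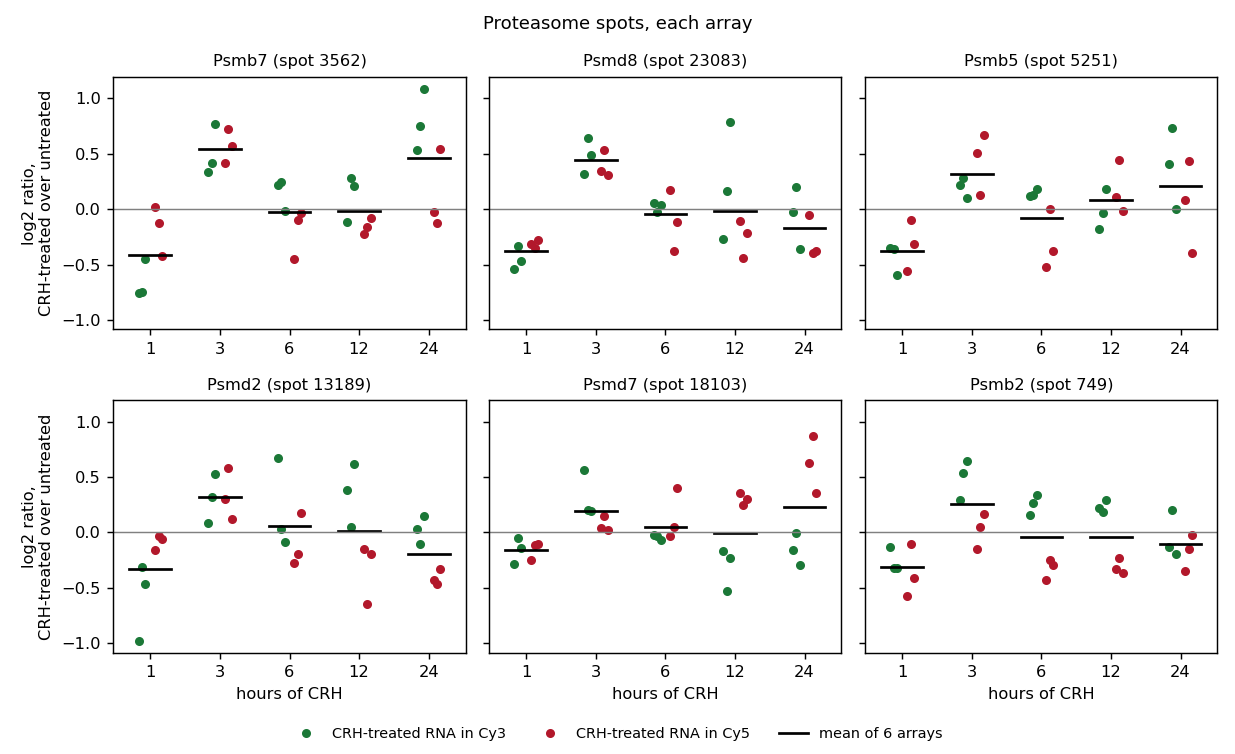
Log2 ratio (CRH-treated over untreated RNA) on each of the 30 arrays for spots of Psmb7, Psmd8, Psmb5, Psmd2, Psmd7 and Psmb2, by hours of CRH, with green points for treated RNA in Cy3, red for Cy5 and bars for the mean of 6 arrays. On the first 5 spots every 3 h array lies above every 1 h array, and the colours part at later times, as for Psmd7 at 24 h.

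Promoters are shown for members whose 1 and 3 h arrays were apart, where the RefSeq table of GRCm38.p6 held them. Each runs from 250 bases before to 50 after the annotated start of transcription, 5′ to 3′ on the gene's strand. Capitals mark matches, on either strand, to letters that bear on CRH signalling and on proteasome genes: TGACGTCA, the cAMP response element, TGACG, its short form, TGACNNNGC, the core of the antioxidant response element, and CCAAT, the NF-Y box. The table had no entry used here for Psmb7 and Psmd7.
Psmd8 promoter, chr7:29180624-29180923, minus strand: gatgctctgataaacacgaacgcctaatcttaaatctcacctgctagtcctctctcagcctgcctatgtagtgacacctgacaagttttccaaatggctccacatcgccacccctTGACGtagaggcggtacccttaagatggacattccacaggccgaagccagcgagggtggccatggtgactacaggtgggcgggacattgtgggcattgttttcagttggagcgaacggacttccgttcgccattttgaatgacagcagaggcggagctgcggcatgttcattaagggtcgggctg
Psmb5 promoter, chr14:54617946-54618245, minus strand: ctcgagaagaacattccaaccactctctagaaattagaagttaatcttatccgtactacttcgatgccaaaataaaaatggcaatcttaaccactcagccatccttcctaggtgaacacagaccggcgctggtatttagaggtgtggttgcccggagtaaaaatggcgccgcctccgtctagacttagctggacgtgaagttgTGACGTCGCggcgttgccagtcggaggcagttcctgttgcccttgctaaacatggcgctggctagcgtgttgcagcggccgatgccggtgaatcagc
Psmd2 promoter, chr16:20651402-20651701, plus strand: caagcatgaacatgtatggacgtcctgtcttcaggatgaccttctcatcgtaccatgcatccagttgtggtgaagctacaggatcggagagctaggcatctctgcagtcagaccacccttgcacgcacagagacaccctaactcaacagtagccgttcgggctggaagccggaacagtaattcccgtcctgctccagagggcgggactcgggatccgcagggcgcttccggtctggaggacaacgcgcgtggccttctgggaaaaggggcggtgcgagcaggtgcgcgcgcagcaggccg
Cops4 promoter, chr5:100518059-100518358, plus strand: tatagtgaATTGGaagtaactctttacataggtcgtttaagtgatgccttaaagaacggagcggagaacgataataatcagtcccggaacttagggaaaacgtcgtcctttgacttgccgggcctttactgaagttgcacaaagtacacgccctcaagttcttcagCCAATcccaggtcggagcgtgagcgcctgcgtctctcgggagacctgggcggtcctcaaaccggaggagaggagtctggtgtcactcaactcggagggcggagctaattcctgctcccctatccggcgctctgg

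Psmd8 held TGACG 1 time, Psmb5 held TGACG 1 time overlapping 1 antioxidant response element core, Psmd2 held no match and Cops4 held 2 NF-Y boxes. Of the 34 proteasome names, 28 had at least 1 promoter in the table, 31 promoters in all. TGACG was in 16 of these 31 (51.6%), in 34 of the 89 promoters of the other members (38.2%) and in 20.8% of all 32851 promoters of the table. The full TGACGTCA was in 0 of 31, in 3 of 89 and in 1.79% of all. The antioxidant response element core was in 4 of 31 (12.9%), in 17 of 89 (19.1%) and in 12.4% of all, and CCAAT in 11 of 31 (35.5%), in 28 of 89 (31.5%) and in 37.4% of all. TGACG is part of TGACGTCA and overlaps TGACNNNGC, so these counts are not separate. A match is a run of letters and no measured binding site, and promoters differ in base composition, which was not adjusted for.

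Among the ATPases of the 19S ring, Psmc3 and Psmc2 changed over time. Psmc3 had on spot 11495 a mean of -0.47 ± 0.56 at 1 h, 0.24 ± 0.20 at 3 h and 0.21 ± 0.46 at 6 h (SD, n = 6). The 1 h arrays ranged from -1.13 to 0.41 and the 3 h arrays from -0.04 to 0.49, so they overlapped. Time had an adjusted p of 0.103, and the call at p under 0.01 was lost without replicate 1, 2, 5 or 6 (p from 0.0245 to 0.0685). Its other spot, 22345, had the opposite signs, 0.25 ± 0.25 at 1 h and -0.15 ± 0.60 at 3 h (adjusted p = 0.211), and the means of the pair over the 5 times correlated at r = -0.8. Psmc2 had on spot 18425 a mean of -0.22 ± 0.25 at 1 h, 0.24 ± 0.27 at 3 h and -0.22 ± 0.46 at 6 h (adjusted p = 0.0764). This call too was lost without replicate 1, 2, 5 or 6 (p from 0.0105 to 0.0241). Its spot 9462 had -0.20 at 1 h and 0.11 at 3 h and was set aside (interaction, adjusted p = 0.0158). Psmc4, whose mean over the 5 times was the highest of this group at 0.05, had -0.75 at 1 h with treated RNA in Cy3 and 0.28 for Cy5 (interaction, adjusted p = 0.00858).

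Psmd4 is a ubiquitin receptor of the 19S cap and was printed on 3 measured spots. Spot 232 had means of -0.23 ± 0.36 at 1 h, 0.01 ± 0.43 at 3 h and 0.47 ± 0.35 at 24 h (SD, n = 6), where all 6 arrays were above 0, from 0.02 to 0.83. It changed over time at p under 0.01 (adjusted p = 0.112), a call lost without replicate 1, 2, 3, 5 or 6 (p from 0.01 to 0.0385). Spot 2275 had -0.38 ± 0.29 at 1 h and 0.17 ± 0.27 at 3 h (adjusted p = 0.125), and spot 3768 had -0.36 ± 0.94 and 0.57 ± 0.53 with an adjusted interaction p of 0.0225. The 3 spots had the same sign at 1 h and at 3 h, yet the 24 h mean of spot 2275 was 0.05 and not 0.47. Psmd12, a scaffold subunit of the lid, ran the other way, with 0.49 ± 0.60 at 1 h, 0.13 ± 0.31 at 3 h and -0.24 ± 0.54 at 24 h, and an adjusted interaction p of 0.0459. Its 1 h mean rested on one orientation, 0.97 with the treated RNA in Cy5 and 0.01 in Cy3.

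Among the alpha subunits no tested spot changed over time. Psma4, with the highest mean over the 5 times in its group, had 0.06, 0.20, -0.04, 0.10 and 0.29, and Psma2, with the lowest, had -0.11, -0.01, 0.08, -0.22 and -0.01. Neither changed over time (adjusted p = 0.285 and adjusted p = 0.809). Psmb4 on spot 16265, the lowest of the beta subunits, had -0.24 ± 0.25 at 3 h, against the order of most subunits. The activator subunit Psme2, which opens the core as part of the interferon-induced PA28 cap, had -0.13 at 1 h and 0.17 at 3 h (interaction, adjusted p = 0.0479). Means of proteasome spots at single time points ranged from -0.47 to 0.57.

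**Figure D4:**
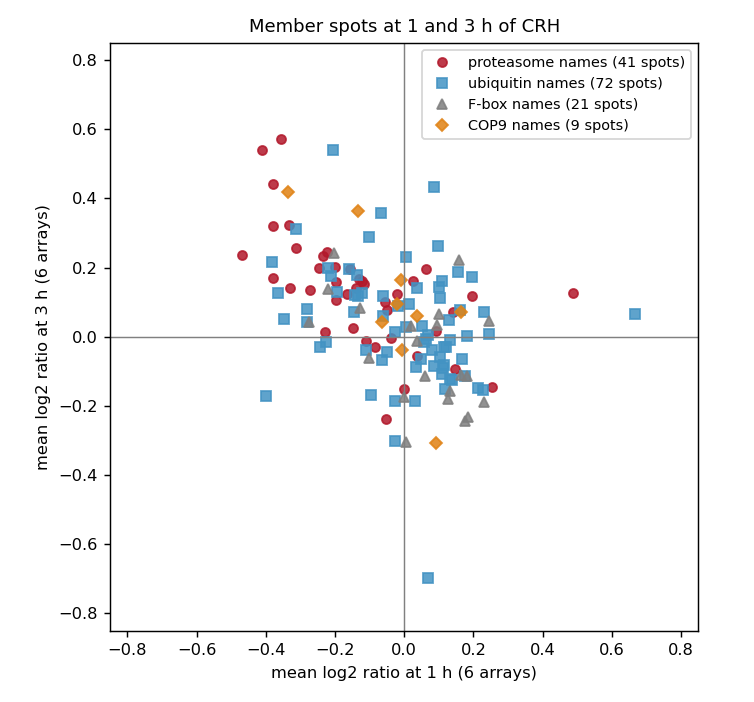
Mean log2 ratio of 6 arrays at 1 h (horizontal) and at 3 h (vertical) for the 143 measured member spots, with red circles for proteasome, blue squares for ubiquitin, grey triangles for F-box and orange diamonds for COP9 names. The upper left field, below 0 at 1 h and above 0 at 3 h, holds 27 of the 41 proteasome spots and 22 of the 72 ubiquitin spots.

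The ubiquitin names, which hold the enzymes that attach and remove the tag, had medians near 0 at every time. The median of the 72 ubiquitin spots was 0.04 after 1 h, 0.03 after 3 h, and -0.01 at each of the later times. Its array medians crossed 0 at 1, 6, 12 and 24 h. At 3 h they were above 0 on all 6 arrays, between 0.005 and 0.10, and so were those of the E2 spots, between 0.02 and 0.18. By role, the 26 E2 spots had medians of -0.02 at 1 h and 0.08 at 3 h, the 17 deubiquitinase spots 0.04 and 0.00, the 10 E3 spots 0.11 and 0.01 and the 5 E1 spots 0.01 and -0.01.

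Uba1, the main E1 that activates ubiquitin at the head of the cascade, had the highest 3 h mean of any ubiquitin spot, 0.54 ± 0.17 (SD, n = 6). Its 6 arrays at 3 h ranged from 0.31 to 0.80 and were all above 0. At 1 h they ranged from -0.76 to 0.60 with a mean of -0.21 ± 0.51, which overlaps. From 6 h on the means were 0.10, -0.00 and 0.05. Uba1 changed over time at p under 0.01 (adjusted p = 0.0749), and 3 against 6 h passed p under 0.01 too. The call over time was lost without replicate 1, 2, 3, 5 or 6 (p from 0.01 to 0.0381). No spot of the other E1 enzymes passed the test of time. Uba2, a subunit of the E1 of SUMO, had on spot 22341 a mean of -0.30 ± 0.53 at 3 h with an adjusted interaction p of 0.0205. Uba3, a subunit of the E1 of Nedd8, had on spot 15331 a mean of 0.03 ± 0.16 at 3 h and 0.24 ± 0.29 at 6 h (adjusted p = 0.477).

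Ubb, a polyubiquitin gene, was not named by the rule and was added with its values seen. It was below 0 on all 6 arrays at 6 h, at -0.23 ± 0.23 (SD, n = 6), and had an adjusted interaction p of 0.0345. Its mean was -0.20 at 1 h and 0.13 at 3 h.

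Among the E2 enzymes, Ube2m, the E2 of Nedd8, had on spot 6637 the highest mean of the E2 spots over the 5 times, 0.16 ± 0.07 (SE). Ube2e3 had the lowest on spot 18006, -0.14 ± 0.06. Limma gave both an adjusted p of 0.907. Each gene had a further spot with other values. Ube2m had 0.09 at 1 h and 0.43 at 3 h on spot 6637, but -0.14 and 0.07 on spot 17442. Ube2e3 had -0.09 and -0.17 on spot 18006, but 0.10 and 0.26 on spot 19809. Ube2h had the lowest interaction p of the E2 spots (adjusted p = 0.00236): at 12 h it was 0.21 with the treated RNA in Cy3 and -0.74 in Cy5, and at 24 h -0.02 and 0.47.

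The deubiquitinases Usp25 and Uchl1 show how far spots of one gene can differ. Usp25 trims ubiquitin chains and is known to act in receptor signalling. On spot 11452 it had 0.67 ± 0.78 at 1 h, 0.07 ± 0.47 at 3 h and -0.22 ± 0.69 at 24 h (SD, n = 6), and changed over time (adjusted p = 0.0937). The call was lost without replicate 1, 2, 3 or 5 (p from 0.0118 to 0.0774). The 1 h mean was 1.30 with the treated RNA in Cy3 and 0.03 in Cy5. Spot 7511 had 0.14, -0.12 and -0.18 at these times, and spot 2379 the opposite, -0.37, 0.13 and 0.16. The 5 means of spots 2379 and 11452 correlated at r = -0.967. Uchl1, an abundant hydrolase of neurons and neuroendocrine cells, was measured on 4 spots. Spot 14312 changed over time (adjusted p = 0.0749) with its highest mean at 6 h, 0.39 ± 0.26, a call lost without replicate 1, 2, 3, 5 or 6 (p from 0.0126 to 0.0499). At that time the other 3 spots had -0.17, -0.39 and -0.09. Spot 1501 had -0.31 ± 0.41 at 1 h and 0.31 ± 0.21 at 3 h, with all 6 arrays above 0 at 3 h, and differed between 3 and 6 h at p under 0.01. Usp3, the lowest of the group in the mean over time (-0.13), was below 0 on all 6 arrays at 3 h, at -0.19 ± 0.10.

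Across the members, 31 genes had more than 1 measured spot, which gives 48 pairs. Over the 30 arrays the ratios of a pair correlated with a median r of 0.07, from -0.64 to 0.64, with r below 0 in 21 pairs and above 0.5 in 3. The clone sequences behind the spots were not used here, so whether the spots of a pair detect the same transcript was not tested. A value of 1 spot is therefore a value of that spot and not yet of the gene.

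The remaining ubiquitin names gave 2 changes. Ubl3, a membrane-anchored ubiquitin-like protein, had on spot 782 means of 0.11 and 0.16 at 1 and 3 h, and of -0.07, -0.18 and -0.16 afterwards (adjusted p = 0.0555, call lost without replicate 5). Its other spot, 24182, had a mean of -0.70 ± 1.59 at 3 h (SD, n = 6), the lowest of any member at any time, set by 1 array at -3.89. Ubd, a ubiquitin-like protein induced by inflammatory cytokines that sends proteins to the proteasome, had its highest mean at 6 h, 0.17, and its lowest at 12 h, -0.25 (adjusted p = 0.0704). The call was lost without replicate 1, 2 or 4. At all 5 times its mean was lower with the treated RNA in Cy3 than in Cy5, for example -0.73 against 0.22 at 12 h. Ufd1, which works with the ATPase Vcp in pulling ubiquitinated proteins out of the ER membrane, had the lowest interaction p of all members (adjusted p = 0.000609). It was 0.42 in Cy3 and -0.21 in Cy5 at 1 h, and -0.26 and 0.76 at 12 h.

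**Figure D5:**
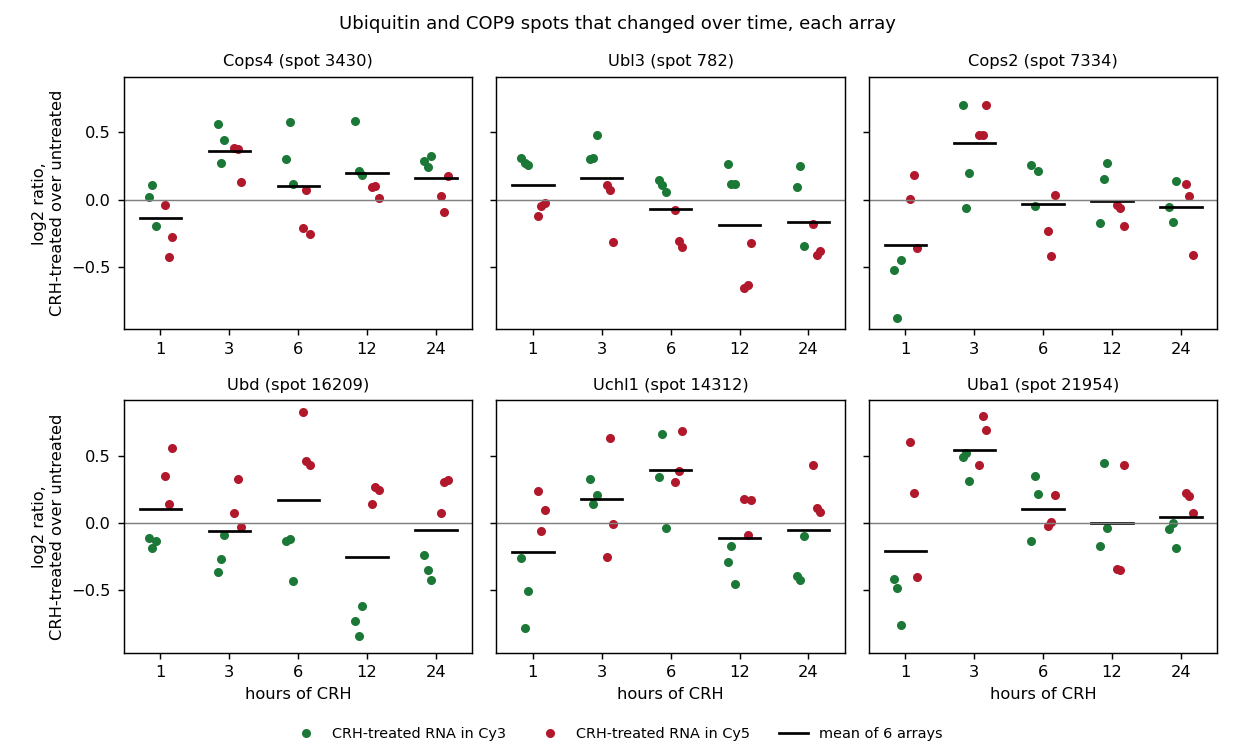
Log2 ratio (CRH-treated over untreated RNA) on each of the 30 arrays for 6 ubiquitin and COP9 spots that changed over time, by hours of CRH, with green points for treated RNA in Cy3, red for Cy5 and bars for the mean of 6 arrays. Cops4 and Cops2 have their highest mean at 3 h, Uba1 has all 6 arrays above 0 at 3 h, Uchl1 has its highest mean at 6 h, and for Ubd the green points average below the red at every time.

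Of the E3 ligases no tested spot changed over time. Ubox5 had the highest mean over time, 0.11, and Ube3a on spot 9483 the lowest, -0.10, with an adjusted interaction p of 0.0657. Ube4b, which extends ubiquitin chains, was above 0 on all 6 arrays at 24 h (0.21 ± 0.16, SD, n = 6) and had an adjusted interaction p of 0.00268. The 21 F-box spots had a median of 0.10 at 1 h and -0.06 at 3 h, and 4 of them were below 0 at 1 h and above 0 at 3 h (19%), against 26.8% of all spots. Fbxw5 had the highest mean over time among them, 0.15 ± 0.06 (SE, limma adjusted p = 0.907), with all 6 arrays above 0 at 6 h, and Fbxl17 the lowest, -0.11. Fbxo44 was the F-box spot with an interaction (adjusted p = 0.00642).

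The COP9 signalosome had 2 spots that changed, both highest at 3 h. Cops4 had means of -0.13 ± 0.20 at 1 h, 0.36 ± 0.15 at 3 h, then 0.10 ± 0.31 at 6 h, and later 0.20 ± 0.20 at 12 h and 0.16 ± 0.16 at 24 h (SD, n = 6). Its 3 h arrays ranged from 0.13 to 0.56, all above those of 1 h, which ranged from -0.43 to 0.11, and all 6 arrays of 12 h were above 0 too. Time had an adjusted p of 0.0179. Cops2 had -0.34 ± 0.38 at 1 h and 0.42 ± 0.30 at 3 h, with overlapping arrays, and means within 0.06 of 0 afterwards (adjusted p = 0.0556, call lost without replicate 1 or 6). Cops6 was below 0 on all 6 arrays at 6 h, at -0.20 ± 0.10, and had an adjusted interaction p of 0.0111.

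The orientations differed on most spots: the median absolute difference between the Cy3 and Cy5 means of a member spot was 0.34 at 1 h and 0.30 at 3 h, against 0.33 and 0.30 over all measured spots. A dye difference that changed with time was found on 26 of the 143 member spots at p under 0.01 (18.2%), against 14.8% of all measured spots. Among the proteasome spots it was 12 of 41 (29.3%), among the ubiquitin spots 12 of 72 (16.7%), and 1 spot each of the 21 F-box and 9 COP9 spots. For the proteasome the count moved with single replicates and with the loess step: it was 5 without the replicate 1 or the replicate 5 array of each time point, 6 without replicate 4, 4 without the 1 h arrays, and 7 with 1 loess curve per array.

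With the 5 time points as units, no member was called for a CRH effect or a trend. These tests ask about the mean over the time course and about a steady slope. A ratio below 0 at 1 h and above 0 at 3 h can cancel in both, so they cannot decide on such a course. Limma gave 0 of 143 members a mean over the time course different from 0 at an adjusted p under 0.05 (lowest adjusted p 0.907), where 0.0487% of all spots were higher and 0.00696% lower. At an unadjusted p under 0.05 there were 3 members with a higher mean (2.74% of all spots) and 2 with a lower one (2.7%). The trend with the log2 of hours was called in 0 members and 0% of all spots, and at an unadjusted p under 0.05 in 3 members with a positive slope (3.87% of all spots) and 3 with a negative one (3.55%). The steepest slope was that of Usp25 spot 11452, -0.18 ± 0.04 (SE) for each doubling of time (adjusted p = 0.479), whose adjusted p was 0.0406 without the 3 h average. Next were Psmd12 at -0.14 ± 0.04 (adjusted p = 0.499) and Psmd4 spot 232 at 0.12 ± 0.04 (adjusted p = 0.549). No member reached 1.5-fold (0.585 on the log2 scale) with all 6 arrays of a time point on one side, a rule that 0.591% of all spots passed. At single times all spots higher by this rule came to 0.104% at 1 h, 0.16% at 3 h, then 0.0348% at 6 h, and later 0.118% at 12 h and 0.0974% at 24 h, and those lower to 0.0974%, 0.0209%, 0%, 0.0209% and 0.0487%.

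Short of that size, 9 members had all 6 arrays below 0 at 1 h (6.29%, against 3.4% of all spots), with 2 all above 0 (2.94% of all spots). Of the 9, 6 were proteasome spots (14.6%): Psmb2, Psmb5, Psmd2, Psmd7, Psma6 and Psmd8. At 3 h, 12 members had all 6 arrays above 0 (8.39%, against 4.66%), 5 of them proteasome spots (12.2%), and 2 had all 6 below 0 (2.21% of all spots). At 6, 12 and 24 h the counts were 2, 3 and 3 above 0 (1.27%, 2.37% and 2.57% of all spots) and 4, 0 and 1 below 0 (1.39%, 2.09% and 1.99%). The mean was above 0 at all 5 times on 4 members (2.87% of all spots), namely Uchl5, Uba3 spot 15331, Fbxo44 and Ube4b, and below 0 at all 5 on 3 (3.85%), namely Ube3a spot 9483, Usp8 spot 16124 and Ube2e3 spot 18006. The difference of 3 and 6 h, within 1 day of quantification, passed p under 0.01 on 4 of 117 members (3.42%), near the 3.02% of all spots: Psmd8, Psmb2, Uchl1 spot 1501 and Uba1, all higher at 3 h.

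Genes of the same pathway that carry other names were taken from a list of name beginnings, such as cullin, ring finger protein, tripartite motif and the alternative spellings of proteasome subunits. The list took 115 spots, of which 76 were measured. Of these, 12 were set aside for an interaction of time and dye (15.8%, against 14.8% of all measured spots). In the linear model 9 of the 64 tested for time changed at p under 0.01 (14.1%, against 8.5% of all spots tested). At an adjusted p under 0.05 there were 6 of them (9.38%, against 3.99%). Psmc5, a 19S ATPase printed under the name protease, was low at 1 h and high at 3 h too, -0.44 ± 0.47 at 1 h, 0.51 ± 0.14 at 3 h (SD, n = 6), then 0.08, 0.28 and 0.19 (adjusted p = 0.014). Psmd14, the deubiquitinase of the lid, had -0.27 at 1 h and 0.19 at 3 h (adjusted p = 0.0576). The immunoproteasome subunits Psmb8 and Psmb9 did not pass (adjusted p = 0.716 and adjusted p = 0.743), and their means at 3 h were below 0. Psmb8 had -0.13 at 1 h and -0.15 at 3 h, and Psmb9 had -0.30 and -0.02. Nedd8, the tag that the COP9 signalosome removes, was the one spot of this list past the 1.5-fold rule at 1 h, at -0.71 ± 0.20, and had 0.45 ± 0.40 at 3 h, and passed the interaction test at p under 0.01. These are values of 1 of its 2 spots, and the other had 0.14 ± 0.37 and -0.02 ± 0.20 (adjusted p = 0.962). Anapc5, a subunit of the cell cycle ligase APC/C, had -0.38 ± 0.21 and 0.46 ± 0.17 (adjusted p = 0.000303). Nedd4l, an E3 ligase of membrane channels, had -0.15 ± 0.18 at 1 h and 0.61 ± 0.30 at 3 h, past the 1.5-fold rule on 1 of its 2 spots (adjusted p = 4.89e-05). The other had 0.12 ± 0.52 and -0.16 ± 0.27 (adjusted p = 0.637). Sqstm1, a receptor that brings ubiquitinated proteins to autophagy, had -0.22 at 1 h and 0.40 at 24 h (adjusted p = 0.033). Bag1, a cochaperone that links Hsp70 to the proteasome, had -0.28 at 1 h, 0.02 at 3 h and 0.54 at 24 h (adjusted p = 0.00282). The remaining 3 changed spots had lower means at 3 h than at 1 h. Rnf8, an E3 ligase of the DNA damage response, had 0.36 and 0.02 (adjusted p = 0.0159), Rnf2, an E3 ligase of Polycomb, 0.15 and -0.28 (adjusted p = 0.0917), and the ariadne homolog Arih1 on 1 of its 4 spots 0.35 and -0.21 (adjusted p = 0.106). The other 3 Arih1 spots had higher means at 3 h than at 1 h and did not pass the test.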

How the data were processed

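Ratios of CRH-treated to untreated AtT-20 RNA were measured on 30 two-colour spotted cDNA arrays, 6 for each of 5 time points. The authors deposited mean spot intensity per dye, read with a fixed circle and without background subtraction. They also deposited log2 ratios normalised by loess, which were used as an alternative. In 1 file Cy5 came first, and its 2 extra channels were not used. Here a spot was left out if on any array it did not exceed its channel's 10th percentile, which left 14375 spots. The deposited intensities were then turned into log2 ratios and normalised by loess (span 0.75) of log2 ratio on mean log2 intensity in each of the 48 print-tip blocks, and the sign was set to treated over untreated. The ratios correlated with the deposited log2 ratios at r = 0.977 to 0.994 over 11341 shared spots.

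For each spot a linear model (n = 30 arrays) tested whether the dye difference changed with time, and then time with dye as a covariate where the interaction had p of at least 0.01. These p-values were adjusted by Benjamini-Hochberg over all spots tested. Limma 3.58.1 in R 4.3.3 tested the mean and the trend with log2 hours over the 5 time-point averages, adjusted the same way. Scripts were tested on simulated data. Named spots were those that changed over time, the highest and lowest mean of each role group, those with a limma p under 0.01, the 4 lowest interaction p-values and further spots of genes that changed. Members, lists and rules were chosen with earlier results of these data known. All 119 names were matched to symbols, 99 directly and 20 through a synonym, and promoters came from RefSeq. The values of some members are not reported here. Alternatives were other background, loess, time and block settings and leaving out arrays. The number of arrays limits the technical precision, and the cultures were not replicated within a time point.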

Additional observations from a re-analysis of the deposited data

Results flagged for a closer look

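Of 265 groups of 6 arrays checked for an array far from the other 5, 14 had one (5.28%), and chance alone gives about 1 in 20. At 3 h these were the arrays at -0.40 for Usp25 spot 2379, 0.57 for Psmd7, -1.46 for Fbxl17 spot 19342 and -3.89 for Ubl3 spot 24182. At 6 h they were those at 0.40 for Psmd7 and 1.05 for Ubl3 spot 24182. At 12 h they were those at 0.58 for Cops4, 0.89 for Uchl1 spot 9987, 0.81 for Uchl1 spot 12647, -0.53 for Psmc3ip spot 15066 and 0.014 for Usp3. At 24 h they were those at -0.23 for Fbxw5 and -0.35 for Psmc3ip spot 15066, and the array whose median over the ubiquitin spots was 0.16.

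The ratio differed between time points, by the linear model over 30 arrays with adjustment over all spots tested, for Psmd8 spot 23083 (adjusted p = 0.00844), Psmb2 (adjusted p = 0.0159), and Cops4 (adjusted p = 0.0179). These p-values measure technical spread, since each time point holds 1 pair of extracts. Between 1 and 3 h the time, the extracts and the day of quantification cannot be told apart. With the day as a block, Psmd8 spot 23083 passed p under 0.01, and the spots of Psmb2 and Cops4 did not.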

How the results depend on the processing

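The median ratios of the members, the proteasome spots and the ubiquitin spots stayed within 1 SD of their arrays under every alternative run. Without 1 replicate at a time the proteasome median ranged from -0.17 to -0.12 at 1 h and from 0.11 to 0.16 at 3 h. The counts moved more. Members that changed over time, 15, were 6 with time in hours as one number, 2 with the day of quantification as a block and 5 at an adjusted p under 0.05. For the proteasome spots, 6, these counts were 3, 2 and 2. Chosen after seeing the data, leaving out the 1 h arrays gave 8 members and 3 proteasome spots, and leaving out the 3 h arrays 9 and 1. Without 1 replicate at a time the counts ranged from 8 to 18 and from 3 to 9. Interactions of time and dye, 26 in members and 12 in proteasome spots, were 10 and 2 with time as one number, 13 and 4 without the 1 h arrays, and 15 to 22 and 5 to 10 without 1 replicate. The 12 were 7 with one loess curve per array and 6 with median centring. The 0 members past the 1.5-fold rule became 1 with dim spots kept, 3 with the 10th percentile subtracted, 2 with one loess curve, 3 with median centring and 0 to 2 without 1 replicate. The 0 members with a limma trend became 1 without the 3 h average. The cause of these moves was not tested, beyond fewer arrays where arrays were left out. With replicate number as a block 15 members changed over time, 13 of them among the 15 of the model without it (Ubd and Uchl1 spot 14312 were lost), and the numbers do not pair the arrays: deviations of same-numbered arrays correlated at -0.0242 to 0.0482 over 60 pairs. Of the 15 changed spots, 14 of the 14 found among the deposited ratios passed there. Dim spots limit what can be said of the 42 members not measured.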
